A study of Mus musculus with 70 samples.

Results

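Semaphorins, plexins, ephrins and Eph receptors are the 2 large ligand and receptor systems first described as repulsive cues for growing axons. They were taken here as every row of the deposited hippocampal expression table whose symbol begins with Sema3 to Sema7, with Plxna to Plxnd, with Epha or Ephb and a digit, or with Efna or Efnb and a digit. The rule found 49 of the 14260 listed genes: 20 semaphorins, 9 plexins, 13 Eph receptors and 7 ephrins. RefSeq names 51 protein-coding genes of these families in the mouse, and the other 2, Efna4 and Epha1, have no row in the table and were not analysed here. No expression value entered the rule, and all 49 genes passed the filter on low values, a mean of at least 10 normalized counts.

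The hippocampi came from APP23 mice (TG, strain B6.Cg-Tg(Thy1-APP)3Somm/J), in which the neuronal Thy1 promoter drives a mutant human APP, and from their non-transgenic (NTG) littermates. In each genotype some mice ate only from ZT15 to ZT21, a 6 h window in the dark (time-restricted feeding, TRF), and the others had food at all hours (ad libitum feeding, ALF). Zeitgeber time (ZT) counts hours from lights on in a 12 h light and 12 h dark day. Mice were 6 to 9 months old when restriction began and 10 to 13 months old when tissue was taken, at ZT0, ZT6, ZT12 or ZT18. There were 18 TG TRF mice, 19 TG ALF mice, 16 NTG TRF mice and 16 NTG ALF mice, all housed singly. By time, 25 mice were taken at ZT0, 11 mice at ZT6, 23 mice at ZT12 and 10 mice at ZT18, and the NTG ALF group had 1 mouse at ZT6, so values at ZT6 and ZT18 are less precise than those at ZT0 and ZT12. The labels place both sexes in every group, but the sex of each mouse was not in the labels used. Its balance over groups and times was thus not tested.

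Semaphorins are secreted (class 3) or membrane-bound (classes 4 to 7) proteins that bind plexins, directly or, for most class 3 members, through neuropilin co-receptors, and plexins act on small GTPases and the cytoskeleton. Ephrins are membrane-bound ligands, tethered by a lipid anchor (A class) or by a transmembrane domain (B class), and Eph receptors are receptor tyrosine kinases that meet them on neighbouring cells. In the adult hippocampus both systems are known for roles at dendritic spines and synapses, in neuron and astrocyte contacts, in vessels and in the oligodendrocyte lineage.

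The E-box CACGTG, the element bound by the circadian activators CLOCK and BMAL1, was searched on both strands in RefSeq promoters, the 250 bases before and 50 after each transcription start (GRCm38.p6). Promoters matched 43 of the 49 genes by symbol, 57 promoters in all. The E-box lay in 4 of the 57, a share of 7.02%, against 7.15% of all 32851 promoters and 9.55% of the 14167 promoters of listed genes. Of the 17 promoters of members whose level differed between the times of sacrifice, in a test described later, 3 held it. The fourth is that of Sema4b, whose level did not pass that test. The 3, of Sema6d, Epha8 and Sema3e, are shown because they hold the E-box and their genes passed that test. They were thus picked by both. They are written 5′ to 3′ on the gene's strand with the E-box in capitals. Sema6d, which has another listed start without an E-box, is at chr2:124089719-124090018 on the plus strand. Epha8 is at chr4:136956767-136957066 on the minus strand, and Sema3e is at chr5:14025026-14025325 on the plus strand.
Sema6d: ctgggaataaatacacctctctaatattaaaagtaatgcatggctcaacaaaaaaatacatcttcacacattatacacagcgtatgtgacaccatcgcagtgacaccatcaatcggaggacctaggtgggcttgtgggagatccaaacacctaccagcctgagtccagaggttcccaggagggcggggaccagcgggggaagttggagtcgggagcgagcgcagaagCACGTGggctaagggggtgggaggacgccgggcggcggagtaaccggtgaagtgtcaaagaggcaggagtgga
Epha8: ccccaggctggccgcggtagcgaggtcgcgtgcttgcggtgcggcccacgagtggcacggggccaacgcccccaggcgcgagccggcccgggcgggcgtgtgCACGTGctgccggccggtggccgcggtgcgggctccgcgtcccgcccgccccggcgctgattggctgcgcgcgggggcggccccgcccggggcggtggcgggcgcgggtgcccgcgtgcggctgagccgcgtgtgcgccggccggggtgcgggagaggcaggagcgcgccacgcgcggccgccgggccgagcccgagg
Sema3e: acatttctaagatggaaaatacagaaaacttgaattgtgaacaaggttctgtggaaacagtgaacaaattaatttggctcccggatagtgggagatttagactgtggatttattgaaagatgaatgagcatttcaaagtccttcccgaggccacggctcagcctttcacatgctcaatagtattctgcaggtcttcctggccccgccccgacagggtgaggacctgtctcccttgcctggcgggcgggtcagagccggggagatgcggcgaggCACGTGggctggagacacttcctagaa
The E-box began 23 bases upstream of the start in Sema6d, 148 bases upstream in Epha8 and 23 bases downstream in Sema3e. The Epha8 promoter was 84.3% G and C, the highest share among the members, against a median of 64.3% over the 57 member promoters and 52.7% over all promoters. The GC box GGGCGG lay in 75.4% of member promoters and in 61.1% of those of listed genes. The D-box core TTATGTAA lay in 0 of the 57, against 0.579% of the promoters of listed genes and 0.938% of all promoters. At shares this small, 0 of 57 says little. These matches describe letters in a window and not binding.

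Per kilobase of annotated exon, the members differed widely in level. Epha4, a receptor that binds both ephrin classes and is known at hippocampal synapses, had the highest level, 1833 normalized counts per kb, and stood at percentile 94.4 of listed genes. Efnb3, a transmembrane ephrin, had 1805 normalized counts per kb, and the Sema6b and Sema7a ligands had 1160 and 1143 normalized counts per kb. At the other end, Epha2 had 9.72, Sema3a 23.6 and Epha8 32.6 normalized counts per kb. Among plexins the highest was Plxna1, with 623 normalized counts per kb, and the lowest Plxna3, with 137. Among ephrins the lowest was Efna1, with 92.5 normalized counts per kb. The class medians were 123 normalized counts per kb for semaphorins, 296 for plexins, 182 for Eph receptors and 126.3 for ephrins, against 212 over the 13725 listed genes with an exon length. Epha4 and Efnb3 did not differ beyond their spread over animals, and nor did Sema6b and Sema7a.

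**Figure D1:**
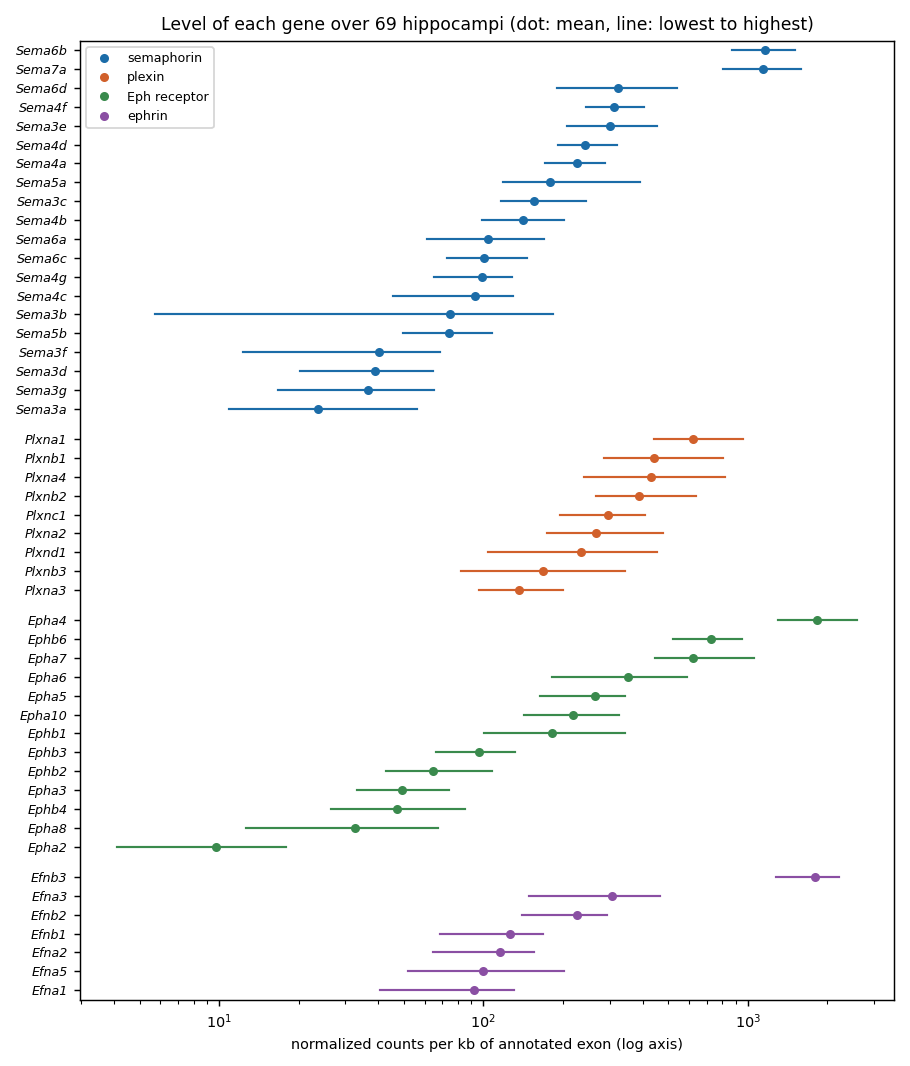
Level of each of the 49 genes in normalized counts per kb of annotated exon (log axis), by class; dots are means over 69 animals and lines run from the lowest to the highest animal. Epha4 and Efnb3 stand highest and Epha2 lowest, and Sema3b has the widest range.

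The genes also differed in how much they varied between animals. The coefficient of variation over the 69 animals ran from 9.95% for Sema4d, a class 4 ligand of plexin-B1, to 61.6% for Sema3b, a secreted class 3 semaphorin. Sema3b had between 27.4 and 873 normalized counts. Its level ran with markers of the choroid plexus, which lies next to the hippocampus. The 19 markers of that tissue split the animals into 43 with a summed level of 99804 or more normalized counts and 26 with 33018 or less, with no animal between. Sema3b had 198 to 873 normalized counts in the 43 animals and 27.4 to 231 in the 26. Within the 43 animals, Sema3b and the mean log2 level of the markers had Pearson's r = 0.71 (permutation p = 1e-05, adjusted 6e-05 over 6 relations) and Spearman's rho = 0.63 (permutation p = 2e-05), with r = 0.60 without the 2 animals farthest from the median. Within the 26 animals the relation did not pass (r = 0.37, permutation p = 0.069, adjusted 0.103; rho = 0.32, permutation p = 0.115). Plxnb2, a broadly expressed plexin, also rose with the markers within the 43 animals (r = 0.52, permutation p = 0.0005, adjusted 0.0015; rho = 0.50, permutation p = 0.00068; r = 0.46 without the 2 farthest), and Sema3f did not (r = 0.26, permutation p = 0.091, adjusted 0.109; rho = 0.20, permutation p = 0.193). Within the 26 animals Plxnb2 had the opposite sign and did not pass after adjustment (r = -0.41, permutation p = 0.042, adjusted 0.084, rho = -0.34, r = -0.22 without the 2 farthest). Sema3f did not pass there either (r = -0.16, permutation p = 0.416, rho = -0.14). The most variable members had first been compared with all marker lists in the same animals. The adjustment over 6 relations does not cover that step. Plxnb2 was not among the members compared in it. The share of animals above the gap was 10 of 18 in TG TRF mice, 16 of 19 in TG ALF mice, 9 of 16 in NTG TRF mice and 8 of 16 in NTG ALF mice, so any group difference of Sema3b stands beside this one.

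Reads in the 70 libraries numbered 27.9 to 47.1 M, with a median of 37.2 M. The 2 libraries of mouse m232 were averaged, which leaves 69 animals, each named here by m and the number in its label. The human transgene has no row that was used here, and mouse App averaged 55680 ± 6035 normalized counts in 37 TG mice and 56189 ± 4983 in 32 NTG mice (SD), so it does not check the genotype labels. In 5 libraries the median correlation with the others was 0.9401 to 0.9697, below all others (0.9716 or more): NTG ALF mice m107 and m1 and TG ALF mice m16 and m5 at ZT0, and TG TRF mouse m104 at ZT12. Calls lost without these 5 are given with the result. In bulk tissue, fewer cells of a type and less RNA per cell cannot be told apart.

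The level of 16 of the 49 genes, 32.7%, differed between the times of sacrifice (limma F test across the 4 times with the 4 groups as covariates, adjusted p under 0.05 over all 14260 genes). The F test cannot separate time from the number series, which sets ZT6 and ZT18 apart from most mice at ZT0 and ZT12. Of all listed genes 35.6% passed the same test, so the families passed about as often as the table as a whole. The 16 were 4 of 20 semaphorins, 4 of 9 plexins, 6 of 13 Eph receptors and 2 of 7 ephrins. By the time of the highest fitted level, 10 were highest at ZT0 (10.7% of all genes passed and were highest there), 1 at ZT6 (8.12%), 3 at ZT12 (8.01%) and 2 at ZT18 (8.78%). The 8 semaphorins and plexins among the 16 were all highest at ZT0, and the 8 Eph receptors and ephrins were spread over the 4 times, with 2, 1, 3 and 2 of them highest at the 4 times in order. Without the 5 libraries of low correlation 14 genes passed, beside 28.7% of all genes, and Efna3, Epha10, Plxna4 and Plxnd1 were lost, at adjusted p of 0.128, 0.051, 0.17 and 0.069. These 14 thus include genes outside the 16.

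**Figure D2:**
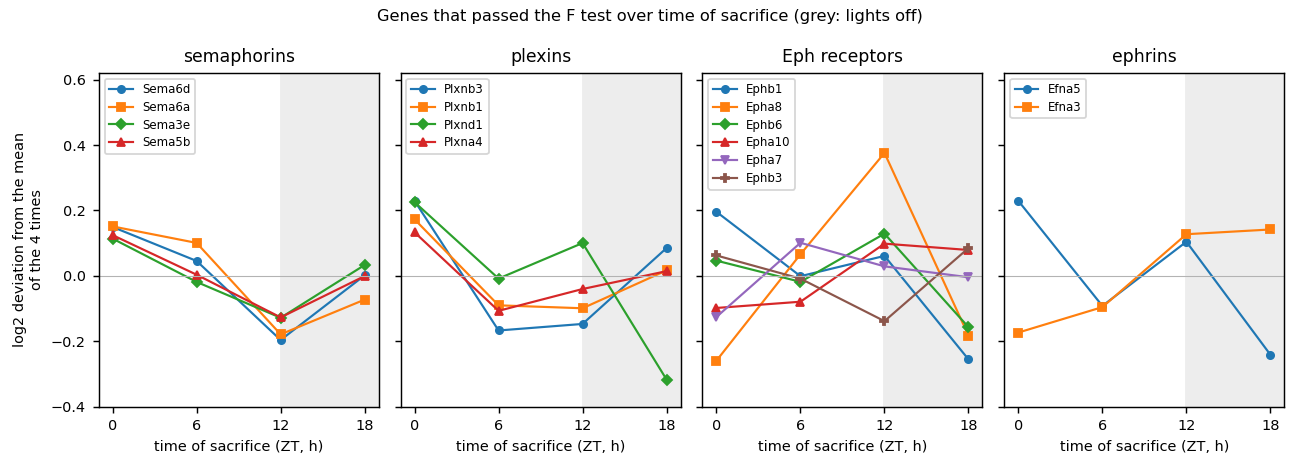
Fitted log2 deviation of each of the 16 genes from its mean over the 4 times of sacrifice, by class; the dark phase is grey. The 4 semaphorins and 4 plexins are highest at ZT0, whereas Epha8, Ephb6 and Epha10 are highest at ZT12.

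Sema6d, a transmembrane ligand of A-type plexins, had the smallest p of the 49. Its lowest, median and highest values were 2821, 3639 and 5728 normalized counts at ZT0, 2521, 3459 and 3983 at ZT6, 1998, 2972 and 3892 at ZT12, and 2915, 3248 and 4574 at ZT18. It was highest at lights on and lowest at lights off, with overlap between the times. At ZT12 it averaged 2989 ± 373 normalized counts (SD, n = 23), against 3808 ± 615 at ZT0 (n = 25), a log2 difference of -0.35 ± 0.05 (SE; limma adjusted p = 4.3e-08). Of the 23 animals at ZT12, 22 lay below the ZT0 median. The difference was -0.41 in TG TRF mice, -0.38 in TG ALF mice, -0.24 in NTG TRF mice and -0.37 in NTG ALF mice, on the log2 scale, and passed the test within 3 of the 4 groups, all but NTG TRF (limma adjusted p = 0.42). Without the 5 libraries of low correlation it was -0.32 in TG TRF mice, where it still passed, and -0.28 in TG ALF mice and -0.23 in NTG ALF mice, where it did not (limma adjusted p = 0.119 and 0.218). With endothelial markers as a covariate the call was also lost in TG ALF and NTG ALF mice, and with precursor markers in all 3 groups (limma adjusted p = 0.157 in TG TRF mice). In TG ALF mice the 6 values at ZT12, 2849 to 3178 normalized counts, did not overlap the 6 at ZT0, 3463 to 4623, and 2.28% of all genes had no overlap there.

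**Figure D3:**
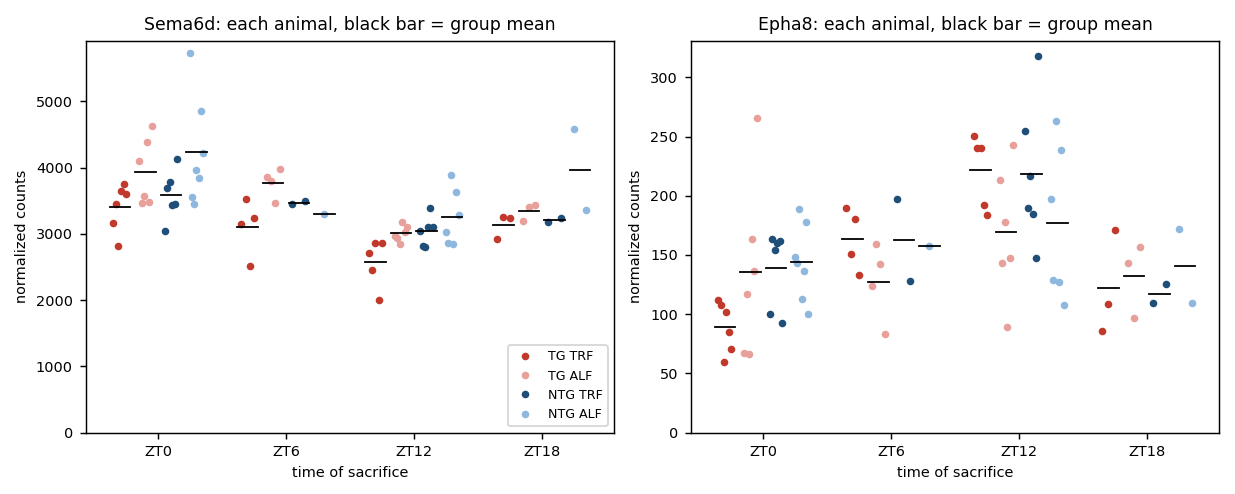
Normalized counts of Sema6d (left) and Epha8 (right) in each animal at the 4 times of sacrifice, by group; black bars are group means. Sema6d is lower at ZT12 than at ZT0 in all 4 groups, and Epha8 is higher, by most in TG TRF mice.

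Sema6a, the paralogue of Sema6d and also a ligand of A-type plexins, had 539, 815 and 1145 normalized counts (lowest, median and highest) at ZT12, against 588, 1017 and 1482 at ZT0, a log2 difference of -0.33 ± 0.07 (limma adjusted p = 0.00015). Sema3e, a secreted ligand of plexin-D1, had 1917, 2501 and 3713 at ZT12, against 2205, 2869 and 4215 at ZT0, a log2 difference of -0.24 ± 0.06 (limma adjusted p = 0.00092). Sema5b, a transmembrane semaphorin with thrombospondin repeats, had 352, 464 and 689 at ZT12, against 418, 554 and 750 at ZT0, a log2 difference of -0.25 ± 0.07 (limma adjusted p = 0.0034). All 3 were lower at ZT12 in each of the 4 groups.

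Of the 9 plexins, Plxnb3, Plxnb1 and Plxna4 were lower at ZT12 than at ZT0 and passed both tests. Plxnb1, the receptor of Sema4d, had 2943, 3872 and 4971 normalized counts (lowest, median and highest) at ZT12, against 3618, 4463 and 7743 at ZT0, a log2 difference of -0.27 ± 0.06, which was -0.15 without the 5 libraries of low correlation (limma adjusted p = 0.028). Plxnb3, a receptor of Sema5a known from glia, had 534, 956 and 1316 at ZT12, against 776, 1211 and 2009 at ZT0, a log2 difference of -0.38 ± 0.09. Plxna4, a receptor of class 3 and class 6 semaphorins, differed by -0.17 ± 0.06 (limma adjusted p = 0.036). Plxnb2 was lower by the same test, at -0.18 ± 0.06, but did not pass the F test. Plxnd1, the receptor of Sema3e, passed the F test and had its lowest median at ZT18: its medians were 1781 normalized counts at ZT0 and then 1650 at ZT6, 1730 at ZT12 and 1178 at ZT18. Its ZT18 range, 926 to 1853, lay within that at ZT0, 761 to 3321.

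Epha8, a receptor of A-type ephrins and a low member, went the other way. Its lowest, median and highest values were 59.6, 116.7 and 266 normalized counts at ZT0, 83.5, 151 and 197 at ZT6, 89.3, 192 and 318 at ZT12, and 86.1, 117.3 and 172 at ZT18. It was highest at lights off, and 21 of the 23 animals at ZT12 lay above the ZT0 median. At ZT12 it averaged 195 ± 57 normalized counts (SD, n = 23), against 128 ± 47 at ZT0 (n = 25), a log2 difference of 0.64 ± 0.13 (limma adjusted p = 0.00012), the largest of the 49 in size. The difference was 1.32 in TG TRF mice, 0.41 in TG ALF mice, 0.64 in NTG TRF mice and 0.25 in NTG ALF mice, on the log2 scale. In TG TRF mice the 5 values at ZT12, 184 to 250 normalized counts, did not overlap the 6 at ZT0, 59.6 to 112. In that group 2 of the 49 members, Epha8 among them, and 2.64% of all genes had no overlap. The difference passed within TG TRF mice alone, but the groups were not shown to differ: between TRF and ALF mice the difference of the time effect was 0.66 ± 0.25 (limma adjusted p = 0.97), and between TG and NTG mice it was 0.42 ± 0.25 (limma adjusted p = 0.995).

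The other Eph receptors and ephrins that passed had several profiles. Epha7, a neuronal receptor of A-type ephrins, had 5178, 6466 and 10481 normalized counts (lowest, median and highest) at ZT12, against 4390, 5668 and 8204 at ZT0, a log2 difference of 0.15 ± 0.05. Epha10, a receptor with a kinase domain held to be inactive, was higher by 0.20 ± 0.06, and Efna3, an A-type ephrin with a known place on astrocytes, by 0.30 ± 0.09. For Efna3, 14.1% of annotated exon bases are shared with an unlisted gene on the opposite strand, Gm15998, and since no strand setting is given in the sources used here, reads of the 2 cannot be told apart. Ephb3 was lower at ZT12 by -0.20 ± 0.06, and Epha2, the lowest member, by -0.36 ± 0.13. Ephb1, a receptor of B-type ephrins, had medians of 1350 normalized counts at ZT0 and then 1179, 1262 and 1036 at the later times. Efna5, the high-affinity ligand of several EphA receptors, had medians of 419, 369, 410 and 298 normalized counts at the same 4 times. Ephb6, a kinase-inactive receptor, had medians of 2695, 2686, 2859 and 2413. Ephb1, Efna5 and Ephb6 thus had their lowest medians at ZT18, as Plxnd1 did.

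Between ZT12 and ZT0 in all, 14 of the 49 genes passed the limma test, 4 higher and 10 lower, against 27.9% of all listed genes, 14.4% higher and 13.6% lower. Of the 14, 13 had the same sign in all 4 groups, and the exception was Epha2, at -0.92 in TG ALF mice and 0.06 in TG TRF mice. The median log2 difference was -0.08 over the 49 genes and 0.00 over all genes. The F test and this comparison together named 18 genes, 12 of them in both, and 31 passed neither. Tested within groups, 3 members passed in TG TRF mice (Epha8, Sema3e at -0.50 and Sema6d; 3.55% of all genes), 2 in TG ALF mice (Sema6d and Epha2; 2.22%), 0 in NTG TRF mice (0.596%) and 1 in NTG ALF mice (Sema6d; 2.17%). Without the 5 libraries of low correlation 0 passed in TG ALF mice and 0 in NTG ALF mice. In NTG TRF mice the smallest p were those of Epha7, at 0.30, Epha8 and Sema6d, and without adjustment 5 members, and 8.58% of all genes, were under 0.05. Voom weights gave the same counts in the 4 groups. For none of the 49 did a difference of the time effect between genotypes or between feedings pass (limma, 0 of all genes; 3 and 2 members and 4.87% and 3.43% of all genes without adjustment).

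Markers of other cells moved with the time of sacrifice too. Of 12 markers of oligodendrocyte precursors, 7 were lower and 2 higher at ZT12 than at ZT0, and their summed level was 20869 to 29638 normalized counts at ZT12, against 23636 to 32214 at ZT0. Of 14 endothelial markers, 7 were lower and 2 higher, and the sums were 5868 to 12482 at ZT12 and 6687 to 14818 at ZT0. Of all listed genes 13.6% were lower and 14.4% higher. None of the genes of these 2 lists was at 0 in all animals. With the mean level of the precursor markers as a covariate, 6 of the 49 genes, 12.2%, passed between ZT12 and ZT0, beside 12.3% of all genes. Among the 14 named genes, Sema6d, Sema3e, Epha8 and Epha10 kept their call and the other 10 did not. Of the 10, Plxnb2 at -0.18, Efna3 at 0.29, Epha7 at 0.13 and Epha2 at -0.28 had log2 differences less than 1.5 times smaller than without the covariate. Sema6a was at -0.18, Plxnb3 at -0.16, Ephb3 at -0.12, Plxnb1 at -0.06, Sema5b at -0.06 and Plxna4 at -0.01. With the endothelial markers as a covariate 11 passed, beside 18.1% of all genes. Of the 14 named genes, Epha2, Epha7, Plxnb2, Plxna4, Ephb3, Sema5b and Efna3 lost their call there. Their limma adjusted p were 0.364, 0.326, 0.154, 0.147, 0.070, 0.067 and 0.052. The 11 thus include genes outside the 14. Without the 5 libraries of low correlation 13 passed, beside 17.2% of all genes, and Efna3 at 0.17, Plxna4 at -0.09, Plxnb2 at -0.10 and Epha2 at -0.37 lost their call (limma adjusted p = 0.155, 0.345, 0.247 and 0.055). These 13 also include genes outside the 14.

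ZT18 against ZT6 gave no call among the 49 (limma, 8.04% of all genes), with 10 and 11 animals. Without adjustment 2 members, and 20.6% of all genes, were under 0.05. The smallest p was that of Ephb1, with 706, 1036 and 1578 normalized counts (lowest, median and highest) at ZT18, against 859, 1179 and 1337 at ZT6, a log2 difference of -0.25 ± 0.10 (limma adjusted p = 0.116). Ephb6 followed at -0.14 ± 0.07, and then Plxnb3 at 0.25 ± 0.13. The Plxnb3 difference was 0.15 without NTG ALF mouse m325, whose value at ZT18 was the highest, and 0.05 with array weights.

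TRF against ALF tests what the feeding window did within a genotype. In TG mice, 1 of the 49 genes passed, Sema6d, against 0.54% of all genes and 0.344% lower. It had 1998, 3159 and 3753 normalized counts (lowest, median and highest) in 18 TG TRF mice, against 2849, 3459 and 4623 in 19 TG ALF mice. The ranges overlapped, and the log2 difference was -0.21 ± 0.05 (limma adjusted p = 0.039). The call was lost when any 1 of 15 animals was left out, with adjusted p up to 0.109, and without the 5 libraries of low correlation, at -0.15 (limma adjusted p = 0.17). Sema6a, with 539, 776 and 1028 in TG TRF mice and 609, 968 and 1382 in TG ALF mice, differed by -0.28 ± 0.08 (limma adjusted p = 0.065), and Epha10 by 0.23 ± 0.07 (limma adjusted p = 0.068). The 18 myelin markers were all lower in TG TRF mice by sign, with a median log2 difference of -0.20, and 1 of them passed; with their mean level as a covariate Sema6d was at -0.17 (limma adjusted p = 0.128). With the precursor markers as a covariate Sema6d was at -0.16 (limma adjusted p = 0.14).

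In NTG mice none of the 49 genes passed between TRF and ALF (limma, 0.0281% of all genes). Without adjustment 9 members, and 7.47% of all genes, were under 0.05. Sema6d again had the smallest p, with 2799, 3312 and 4135 normalized counts in 16 NTG TRF mice, against 2851, 3588 and 5728 in 16 NTG ALF mice, a log2 difference of -0.16 ± 0.06 (limma adjusted p = 0.42). Sema4d differed by -0.12 ± 0.05, and Sema3f, a secreted ligand of neuropilin-2, by 0.43 ± 0.17. For Sema3f the choroid plexus markers ran the same way, 18 of 19 higher by sign with a median log2 difference of 0.42, and with their mean level as a covariate Sema3f was at 0.36 (limma adjusted p = 0.36). A difference of the feeding effect between genotypes passed for no member (limma, 0 of 14260 genes; 4 members and 5.22% of all genes without adjustment). The smallest p of that test were those of Efna2, at 0.31 ± 0.12, Sema3f, at -0.55 ± 0.23, and Epha10, at 0.23 ± 0.10.

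**Figure D4:**
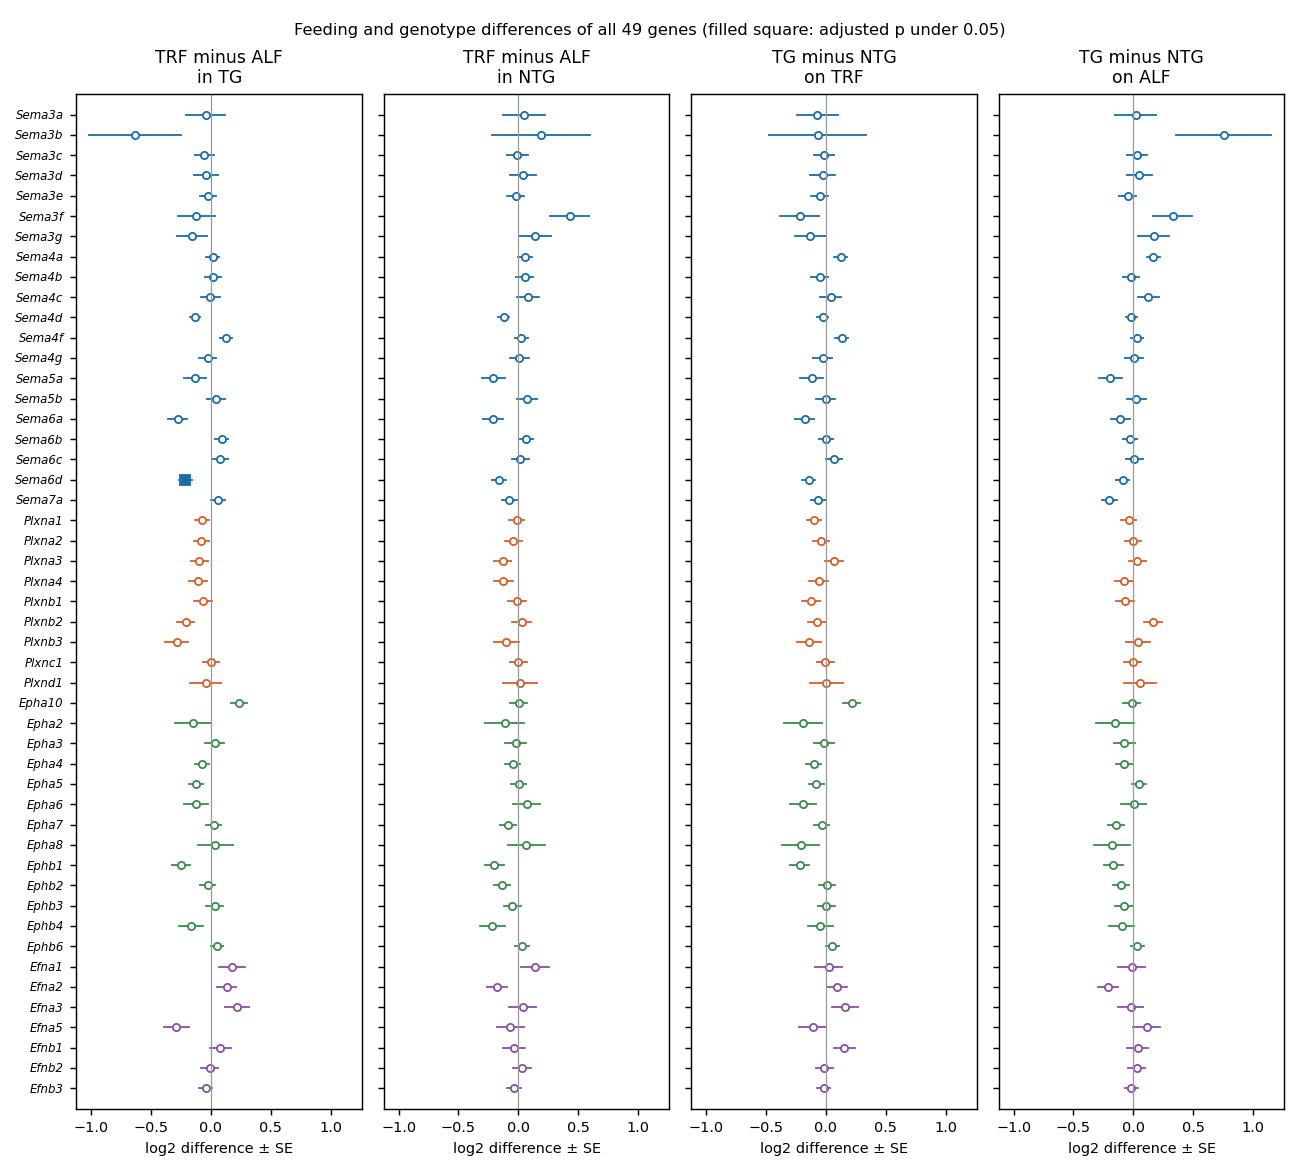
Log2 differences with standard errors for all 49 genes, TRF minus ALF in TG and NTG mice and TG minus NTG on TRF and on ALF, coloured by class as in the level plot. The only filled square, an adjusted p under 0.05, is Sema6d in TG mice, and Sema3b has the widest errors.

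TG against NTG gave no call among the 49 on either feeding. On TRF 0.133% of all genes passed, and without adjustment 6 members, and 6.94% of all genes, were under 0.05. Epha10 had 1277, 1675 and 2339 normalized counts in TG TRF mice, against 1030, 1491 and 2067 in NTG TRF mice, a log2 difference of 0.22 ± 0.07 (limma adjusted p = 0.39). Ephb1 differed by -0.22 ± 0.08 and Sema6d by -0.14 ± 0.06. On ALF 0.189% of all genes passed, and without adjustment 8 members, and 7.3% of all genes, were under 0.05. Sema7a, a lipid-anchored ligand of plexin-C1 and integrins, had 2660, 3453 and 4699 normalized counts in TG ALF mice, against 2935, 4029 and 5251 in NTG ALF mice, a log2 difference of -0.20 ± 0.06 (limma adjusted p = 0.27). Sema4a differed by 0.17 ± 0.06 and Efna2 by -0.21 ± 0.08. Sema3b had a median of 535 normalized counts in TG ALF mice, against 216 in NTG ALF mice, and did not pass; all 19 choroid plexus markers were higher by sign in TG ALF mice, with a median log2 difference of 1.56. The TRF and ALF comparisons share their animals with the genotype comparisons, so their values are not independent of each other.

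Known ligand and receptor pairs were compared over the 69 animals as deviations from the fitted group and time means, for 28 pairs. Sema4d and its receptor Plxnb1 deviated together, with Pearson's r = 0.64 and Spearman's rho = 0.57 (permutation p = 1e-05 each, the smallest that 100000 permutations can give, adjusted 9.3e-05; r = 0.61 without the 2 farthest animals). Sema6d and Plxna4 had r = 0.55 and rho = 0.53 (permutation p = 1e-05 each, adjusted 9.3e-05; r = 0.51 without the 2 farthest). Sema7a and its receptor Plxnc1 deviated in opposite directions, with r = -0.62 and rho = -0.60 (permutation p = 1e-05 each, adjusted 9.3e-05; r = -0.59 without the 2 farthest). Efna3 and Epha4 also ran against each other (r = -0.50, rho = -0.52, permutation p = 4e-05 and 2e-05, adjusted 0.00022 and 0.00014; r = -0.45 without the 2 farthest). Sema3e and its receptor Plxnd1 showed no relation that passed (r = -0.12, rho = -0.02, permutation p = 0.33 and 0.87; r = -0.14 without the 2 farthest). Sema5a and Plxna2 (r = 0.49) and Sema6a and Plxna2 (r = 0.45) had r = 0.20 and 0.27 without the 5 libraries of low correlation, with adjusted permutation p of 0.174 and 0.084. Sema4d and Plxnb2 (0.50), Sema6a and Plxna4 (0.43), Sema3a and Plxna2 (0.42) and Efnb2 and Ephb4 (0.29) also passed by Pearson's r. So did, with negative r, Efna5 and Epha7 (-0.34), Efnb3 and Ephb2 (-0.29) and Efnb3 and Epha4 (-0.28). Neither Efnb3 pair passed by Spearman's rho. No other of the 28 pairs passed by Pearson's r. Among those that did not were Sema6d and Plxna1 (r = 0.25, adjusted permutation p = 0.082), Sema3a and Plxna4 (0.16) and Sema3f and Plxna3 (0.13). Efna5 and Epha5 (r = 0.24, rho = 0.28) and Sema6b and Plxna4 (r = 0.19, rho = 0.35) passed by Spearman's rho only. Other gene pairs were not compared, so whether such values are particular to ligands and receptors was not tested. All animals share their dissection and library preparation, and cell composition also varies among them; its part in these relations was not tested.

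**Figure D5:**
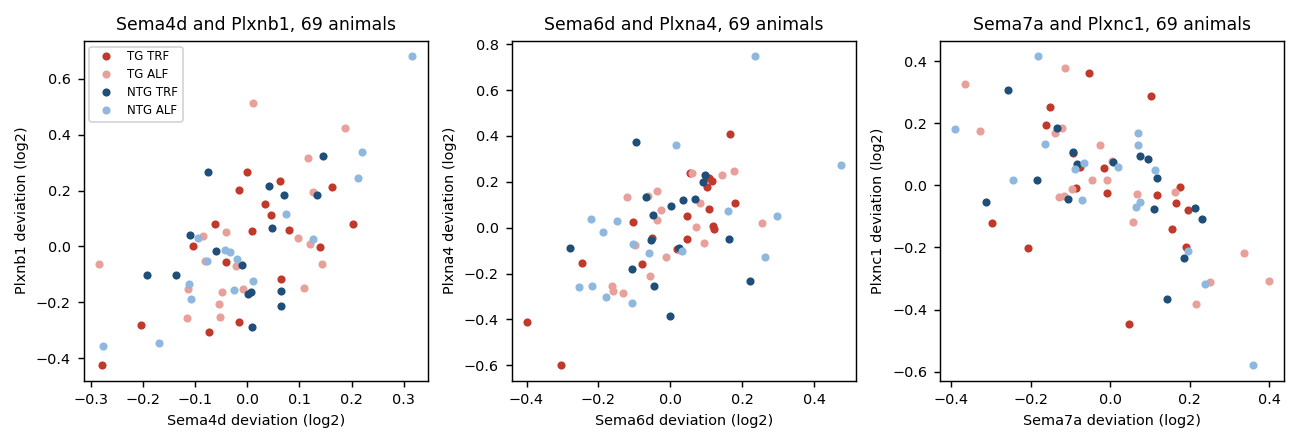
Deviation of each receptor from its fitted group and time mean against that of its ligand, log2 scale, in 69 animals coloured by group. Sema4d with Plxnb1 and Sema6d with Plxna4 slope upward (r = 0.64 and 0.55) and Sema7a with Plxnc1 slopes downward (r = -0.62).

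Partners of the families were counted from 3 lists. Of 37 listed semaphorin partners (neuropilins, MICALs, collapsin response mediators, GTPase regulators), 14 passed the F test over time, led by Farp2, an exchange factor bound by plexins, Rras and Dpysl4. Between ZT12 and ZT0, 4 were higher and 7 lower, among them Dpysl4 at 0.31 and Farp2 at -0.32. Of 36 Eph and ephrin partners, 18 passed the F test, led by Ptpn13, Ngef, the exchange factor ephexin that couples EphA receptors to RhoA, and Itsn1, and 1 was higher and 9 lower at ZT12. Of 33 listed genes of other guidance families (slits, netrins, their receptors and Nogo receptors), 13 passed, 8 of them highest at ZT6. Of all genes 8.12% passed and were highest at ZT6. The smallest p were those of Lingo1, highest at ZT6, and of Unc5b and Robo1, both highest at ZT0. The shares, 37.8%, 50% and 39.4%, stand beside 35.6% of all listed genes, and the median log2 difference between ZT12 and ZT0 was -0.07, -0.02 and -0.09. Of all listed genes 14.4% were higher and 13.6% lower at ZT12 than at ZT0. Between TRF and ALF in TG mice only Unc5b, a netrin receptor of vessels and axons, passed among these lists, at -0.36, beside 0.54% of all genes.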

How the data were processed

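RNA-seq values came from poly-A libraries of total RNA, read as 150-base pairs, per the labels' protocols. Per the submitters' processing notes, HISAT2, featureCounts and DESeq2 were used with GRCm38; versions, the annotation and the strand setting are not given in the sources used here. The deposited values are a signal made by the authors, counts divided by size factors, with 1 table of 14260 genes and 70 libraries. In 70 of 70 libraries the low values were whole multiples, within 0.01, of what 1 read is worth, which gives the depth of 27.9 to 47.1 M reads.

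The 2 libraries of mouse m232 were averaged, leaving 69 animals. Values were tested as log2(value + 1) with limma 3.58.1 (R 4.3.3; trend and robust variances) and Benjamini-Hochberg adjusted over all 14260 genes at 0.05. A fold on this scale understates the change of low genes. The F test over time and the ZT12 against ZT0, ZT18 against ZT6, genotype and feeding comparisons used 4 group means and a term for time, and the tests within groups used 16 means. P-values measure the spread between animals, 1 library each. Correlations used 100000 permutations of animals, two-sided, with Python 3.11.15 and scipy 1.17.1.

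Exon lengths came from GENCODE and promoters from RefSeq. Named genes were those past the threshold, up to 15 per direction for time, and otherwise the 3 of smallest p, with the highest and lowest gene of each class. The members, partner lists and marker lists were chosen with earlier results of these data known. The unit is a normalized count and not a raw count, so no count model was fitted; voom weights on the whole multiples were an alternative. Other alternatives were the pseudocount, the filter, the scaling, array weights, marker levels as covariates, libraries left out and each animal left out; the neocortex, dentate gyrus, endothelium and precursor covariates were chosen after seeing the data, as were the settings tried for the pairs.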

Additional observations from a re-analysis of the deposited data

Results flagged for a closer look

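Of 198 groups of 4 to 10 animals tested over 18 genes, 11 held an animal far from the others by Dixon's 95% criterion, where chance alone gives about 1 in 20. Of the 11, 4 belong to NTG ALF mouse m325 at ZT18, which had the highest value of the 10 animals at that time. It had 4574 normalized counts of Sema6d (next 3438), 5136 of Plxnb1 (next 4292), 2227 of Plxnb3 (next 1267) and 763 of Sema5b (next 557). The same mouse had the highest summed myelin markers at ZT18, 441173 normalized counts against 254680 in the next mouse, and the highest sums of precursor markers, 30213 against 26548, and endothelial markers, 15070 against 13237. It was also highest at ZT18 for the summed astrocyte, microglia, pericyte and smooth muscle, and dentate gyrus markers and the other guidance families, by smaller margins than for myelin. Their part in these values was not tested.

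Epha7 was 10481 normalized counts in NTG ALF mouse m322 at ZT12, against 6662 in the next. Epha10 was 2293 in TG TRF mouse m305 at ZT18, against 1871 in the next. Sema3e was 3065 in TG ALF mouse m109 at ZT12 and Epha2 57.6 in TG ALF mouse m115 at ZT12, each the highest of 6. Efna5 was 399 in TG TRF mouse m315 at ZT6, the highest of 4, and 356 in TG ALF mouse m23 at ZT12, the lowest of 6. Plxnb1 was 2731 in TG TRF mouse m307 at ZT6, the lowest of 4.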

How the results depend on the processing

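Leaving out any of the 69 animals gave 15 to 18 members past the F test over time, 12 to 16 between ZT12 and ZT0, 0 to 3 between TRF and ALF in TG mice, and, for ZT12 against ZT0 within groups, 2 to 5 in TG TRF mice, 0 to 3 in TG ALF mice and 0 to 2 in NTG ALF mice. It gave 0 in the other 8 comparisons. The F test count of 16 became 10 with the precursor markers as a covariate (20.8% of all genes, 35.6% as reported), and the ZT12 against ZT0 count of 14 became 6 (12.3%, 27.9% as reported). Other settings raised these counts. The F test count was 21 with array weights (41.1% of all genes). The ZT12 against ZT0 count was 19 with the oligodendrocyte covariate (29.3%). It was 16 with the choroid plexus covariate (28.2%) or quantile normalization (27.9%). ZT18 against ZT6, 0 as reported, became 7 with array weights (15.9% of all genes, 8.04% as reported), 3 with the neocortex covariate (10.5%) and 1 with the endothelial or the precursor covariate (7.68% and 8.25%). TRF against ALF in TG mice, 1 as reported, became 2 with array weights or libraries rescaled to one total and 6 with the neocortex covariate, where 2.12%, 0.715% and 2.29% of all genes passed, beside 0.54% as reported. It became 0 with ZT0 and ZT12 animals only, no term for time, the choroid plexus, endothelial, oligodendrocyte or precursor covariate, or without the 5 libraries of low correlation. Sema6d then ranged from -0.15 to -0.22 on the log2 scale with the same sign. Its call was also lost without TG TRF mouse m104, m126, m129, m307, m323 or m330, or TG ALF mouse m5, m16, m115, m124, m304, m310, m314, m319 or m332. Within TG ALF mice the count of 2 became 1 with array weights, the choroid plexus covariate, rescaled libraries or a filter at a mean of 100, 0 with the endothelial or precursor covariate or without the 5 libraries, and 3 with the dentate gyrus covariate. Sema6d lost its call there without TG ALF mouse m5, m16 or m23. Epha2 lost its call there when any 1 of 7 animals was left out (limma adjusted p up to 0.137). Within NTG TRF mice, 0 became 1 with array weights or the dentate gyrus covariate. Within NTG ALF mice, 1 became 0 with the endothelial or precursor covariate or without the 5 libraries, and also without NTG ALF mouse m1, m106, m107, m122 or m135. Within TG TRF mice Sema6d lost its call without mouse m104 (adjusted p = 0.111) and with the precursor covariate. Between ZT12 and ZT0, leaving out a single animal ended the call of Epha7 for 2 animals, NTG ALF mouse m322 and NTG TRF mouse m142, of Epha2 for 7 and of Plxna4 for 10. In the F test it ended that of Plxnd1 for NTG ALF mouse m325 and NTG TRF mouse m326 and of Plxna4 for 15. No called value changed sign, and the cause of these changes was not tested. No paired analysis was possible because each animal has its own number and the groups share none. The 10 and 11 animals at ZT18 and ZT6 limit what that comparison can show.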
